A study of Drosophila melanogaster with 2 samples.

Results

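Hr3, Hr38, Hr39, Eip78C and ftz-f1 are nuclear receptor genes of the ecdysone cascade, and the data described here are the CG32121-eGFP peaks at these 5 loci. A peak was counted for a gene when its summit lay in the gene body or in the 1 kb upstream, by the Ensembl release 115 annotation, and 43 of the 7676 peaks of the conservative list (0.56%) met this rule. That list, made by the authors from both replicates, holds peaks with a global irreproducible discovery rate (IDR, a measure of how well a peak's rank repeats between replicates) of 0.01 or below. ftz-f1 had 16 of them, Hr3 had 10, Eip78C had 10, Hr39 had 5 and Hr38 had 2. Chromatin immunoprecipitation with sequencing (ChIP-seq) was carried out on 2-day-old pupae of Drosophila melanogaster, as whole animals, of a strain with an insertion that makes CG32121 fused to enhanced green fluorescent protein (eGFP), with an antibody against the fluorescent protein. The libraries form 1 group of 2 biological replicates, and no untagged or input library was analysed here, so no groups were compared. Whole animals mix all tissues, so a peak at a locus cannot be assigned to a cell type. Peak signal here means the signal value deposited with a peak, which has no stated scale and serves to rank peaks within 1 list. Sequencing depth is unknown.

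Ecdysone is the steroid hormone that times moulting and metamorphosis in flies. It binds the receptor EcR with its partner usp, which switches on a first tier of regulators such as Eip74EF and Eip75B, and these act with later tiers of nuclear receptors. Hr3 (also called DHR3) represses early genes and activates ftz-f1 in prepupae, and the short isoform of ftz-f1 is a competence factor for the next hormone pulse. Eip78C (E78) is related to Eip75B, and Hr38 is the fly member of the NR4A family and can pair with usp. Hr39 is a relative of ftz-f1 that binds similar DNA sites.

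Sequences of 101 bases centred on 8 summits were read from the dm6 assembly in the direction of the gene, to show the DNA under the peaks at starts and under the strongest intronic peak of 3 genes. No Hr3 sequence is shown. Capitals mark matches to any of 15 motifs searched on both strands.
Hr38 start, chr2L:20714653-20714753 (-): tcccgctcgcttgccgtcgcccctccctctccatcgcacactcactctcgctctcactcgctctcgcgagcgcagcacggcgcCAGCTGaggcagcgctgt
Hr39 intron, chr2L:21246849-21246949 (+): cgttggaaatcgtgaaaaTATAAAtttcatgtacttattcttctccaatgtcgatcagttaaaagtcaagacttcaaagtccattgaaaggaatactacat
Eip78C RD and RE start, chr3L:21226287-21226387 (+): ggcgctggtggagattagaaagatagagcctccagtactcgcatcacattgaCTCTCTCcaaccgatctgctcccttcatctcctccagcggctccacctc
Eip78C intron, chr3L:21237165-21237265 (+): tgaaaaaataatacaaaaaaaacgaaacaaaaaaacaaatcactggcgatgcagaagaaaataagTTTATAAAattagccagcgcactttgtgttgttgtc
Eip78C RB start, chr3L:21240327-21240427 (+): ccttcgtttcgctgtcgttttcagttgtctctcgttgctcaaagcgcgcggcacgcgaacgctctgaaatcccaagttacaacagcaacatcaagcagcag
ftz-f1 RB start, chr3L:18801355-18801455 (-): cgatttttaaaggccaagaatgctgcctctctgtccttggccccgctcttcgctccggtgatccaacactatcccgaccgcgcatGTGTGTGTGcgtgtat
ftz-f1 intron, chr3L:18783653-18783753 (-): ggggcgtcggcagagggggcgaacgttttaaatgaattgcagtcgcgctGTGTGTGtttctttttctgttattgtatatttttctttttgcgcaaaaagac
ftz-f1 RC and RD start, chr3L:18765814-18765914 (-): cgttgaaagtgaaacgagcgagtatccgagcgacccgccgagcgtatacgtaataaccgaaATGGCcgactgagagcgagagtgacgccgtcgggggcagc
The capitals are an E-box (CAGCTG) at Hr38, a TATA box (TATAAA, overlapping on both strands at Eip78C) in the introns of Hr39 and Eip78C, a GAGA element (GAGAGAG, here on the other strand) at the Eip78C-RD start, a CA repeat (CACACAC, read as its reverse complement) at 2 ftz-f1 summits and a Pleiohomeotic core (GCCAT, on the other strand) at the third. No listed motif was found at the Eip78C-RB start. Base composition at these 8 summits ran between 29.7% G + C at the Eip78C intron and 69.3% at the Hr38 start, and the strongest Hr3 summit, not shown, had 22.8%.

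Peaks were spread along 4 of the genes, and most lay in introns. Of the 43 summits, 33 (76.7%) were intronic, 7 (16.3%) lay within 500 bp of an annotated start of the gene, and 1 each lay in a coding exon, a 3' UTR and a 5' UTR. In all protein-coding genes of 20 to 60 kb, the range that holds the 5 loci, 73.1% of the summits were intronic by the same classes and 22.3% were within 500 bp of a start of the same gene, so the share in introns at the 5 loci was near that of genes of like length. After overlapping peaks were merged, ftz-f1 had 15 separate regions, Eip78C 10, Hr3 9, Hr39 4 and Hr38 1. This is 2.90 regions per 10 kb at ftz-f1, 2.62 at Hr3, 2.45 at Eip78C, 1.71 at Hr39 and 0.31 at Hr38, against a median of 0.44 over the 783 genes of that length (quartiles 0.00 and 1.14). A summit was found at all 5 members, where 28.8% of 13945 protein-coding genes and 66.4% of the 783 genes of 20 to 60 kb had 1 or more. Only 2 of the 783 genes had more regions than ftz-f1, 14 more than Eip78C, 20 more than Hr3, 145 more than Hr39 and 387 more than Hr38.

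**Figure D1:**
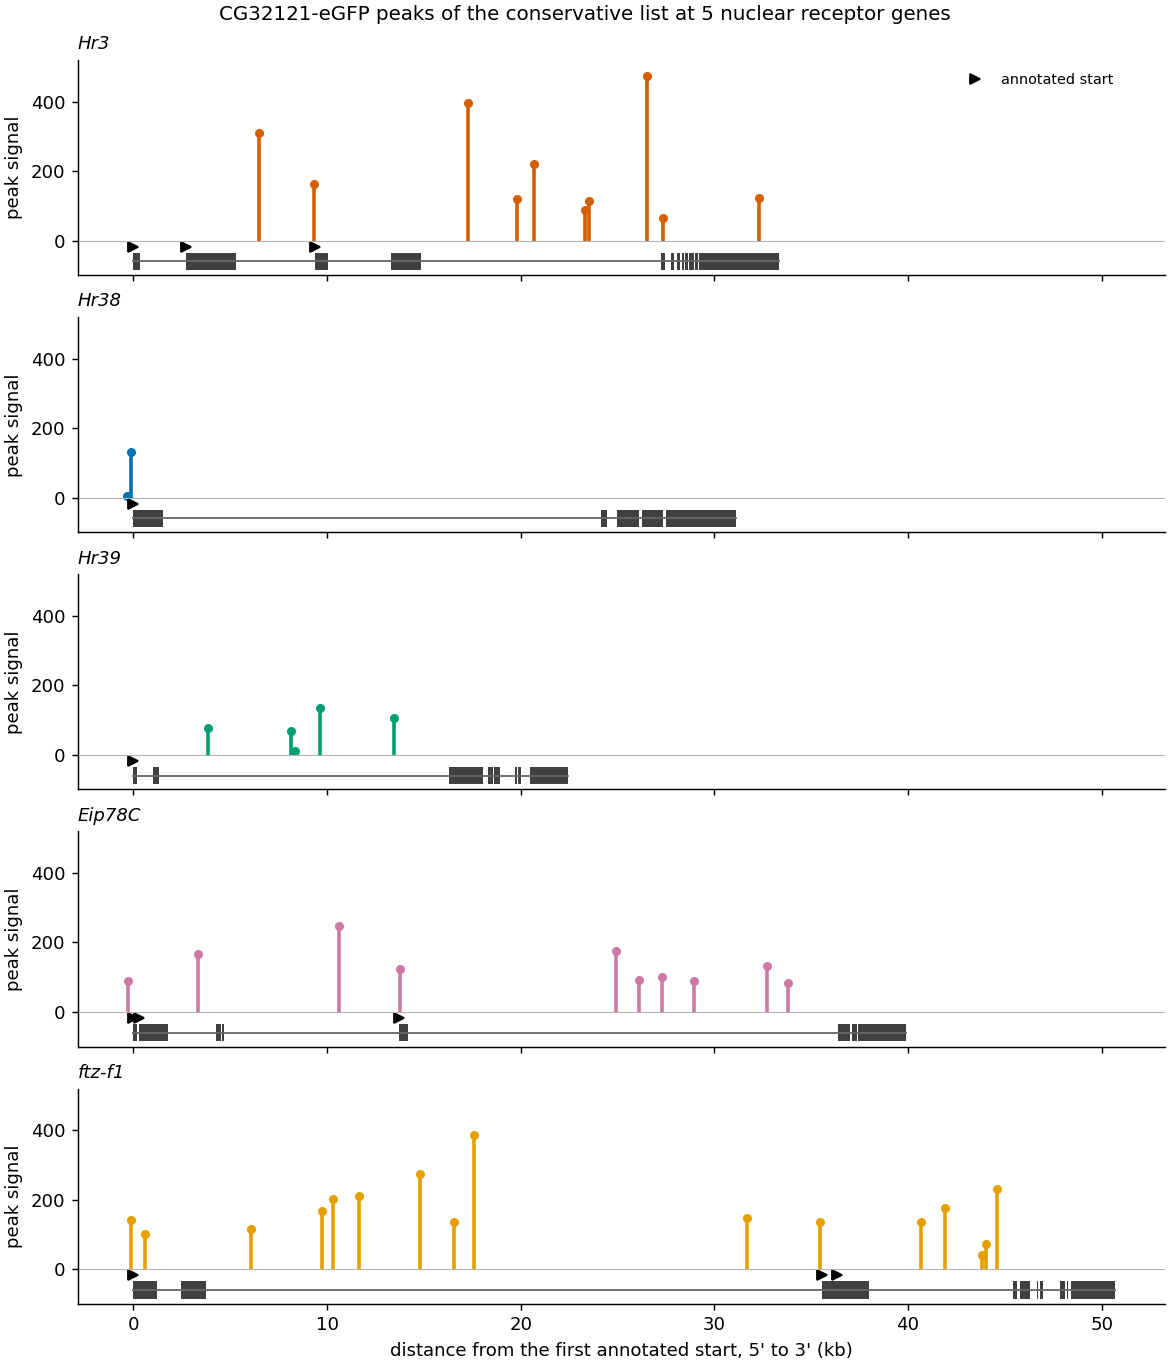
Peaks of the conservative list at the 5 genes, drawn 5' to 3' by distance from the first annotated start (kb), with the peak signal as the height of each stem, exons of any isoform as boxes and annotated starts as triangles. Hr3 and ftz-f1 hold peaks of over 300 in their introns, while Hr38 has peaks at its start alone.

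**Figure D2:**
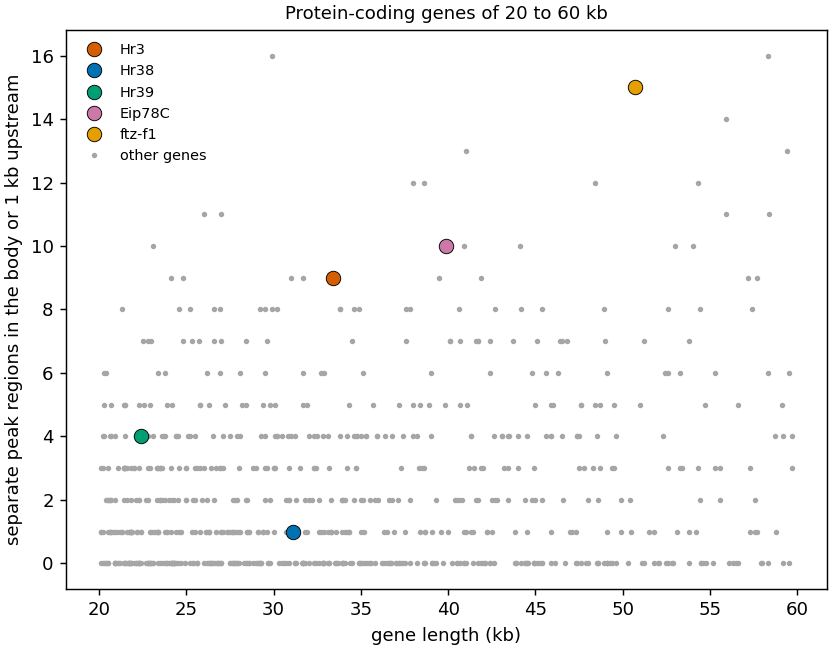
Separate peak regions (y) against gene length in kb (x) for protein-coding genes of 20 to 60 kb, with the 5 members in colour and the other genes in grey. ftz-f1 has 15 regions and Hr38 has 1.

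At Hr3 (FBgn0000448, chr2R:10203995-10237348, minus strand), 8 of 10 summits lay in the 21.9 kb first intron of isoforms RC and RI, which is also inside the 26.9 kb first intron of RD. The strongest, at chr2R:10210819, had a signal of 474.9 and ranked 396th of 7676, with 117.3 in replicate 1 and 353.0 in replicate 2. The next, at chr2R:10220061, had 395.1, with 129.3 in replicate 1 and 253.4 in replicate 2. The third, at chr2R:10230862, had 311.2, with 103.0 in replicate 1 and 198.2 in replicate 2. These 3 were higher in replicate 2, lay away from any start and were in the own lists of both replicates. Of the 3 annotated starts of Hr3, the one shared by isoforms RA, RF and RH had a summit 45 bp upstream. Its signal was 162.9 in the list, 38.0 in replicate 1 and 115.7 in replicate 2, and only replicate 2's own list held it. The nearest summits to the other Hr3 starts were 3745 bp downstream for RC and RI, which include the longest predicted protein of the locus (871 codons), and 6486 bp downstream for RD. The remaining 6 peaks of Hr3 had signals between 64.7 and 219.6, and the lowest lay in a coding exon. Peaks 1 to 9 from the 5' end also lie inside CG12912, peaks 3 to 9, with both of the strongest, inside CG46321, and peaks 8 and 9 inside lncRNA:CR46322. The start summit lies within 500 bp of a start of CG46321. These genes are on the strand of Hr3, so a peak there cannot be assigned to 1 of these genes.

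At ftz-f1 (FBgn0001078, chr3L:18750607-18801309, minus strand), 16 summits fell along the upstream region of the short isoforms and the body. The strongest, at chr3L:18783703 in the second intron of the long isoform RB, had a signal of 385.6, with 114.9 in replicate 1 and 281.1 in replicate 2. The second, at chr3L:18786529 in the same intron, had 274.4, with 71.1 in replicate 1 and 190.4 in replicate 2. The third, at chr3L:18756698 in the 7.5 kb first intron of RA, RC and RD, had 229.7, with 87.1 in replicate 1 and 141.3 in replicate 2. All 3 were in both replicates' own lists. The RB intron held 9 summits and the RA, RC and RD intron held 5. Peaks at the starts of ftz-f1 were lower than these. The RB start, which opens the isoform of 1027 codons, had a summit 96 bp upstream of signal 141.0, which was 63.5 in replicate 1 and 89.6 in replicate 2. The RC and RD start had a summit 120 bp upstream with 136.8, and here replicate 1 was slightly higher, at 69.2 against 66.4 in replicate 2. RA, whose start lies downstream of the RC and RD one, had its nearest summit 908 bp upstream. The other 11 peaks lay between 40.2 and 211.5. The 8 peaks after the first, up to and including the strongest, also lie inside the same-strand noncoding gene lncRNA:CR45939, whose start is within 500 bp of the RB start summit.

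At Eip78C (FBgn0004865, chr3L:21226609-21266503, plus strand), 10 summits gave 10 separate regions, of which 8 were intronic and 2 were at starts. The strongest, at chr3L:21237215 and 3132 bp upstream of the RB start, had a signal of 248.5, with 82.7 in replicate 1 and 186.8 in replicate 2. The second, at chr3L:21251527, had 175.5, with 45.0 in replicate 1 and 126.5 in replicate 2. The third, at chr3L:21229932, had 167.9, with 55.4 in replicate 1 and 108.7 in replicate 2. Eip78C-RB codes for 392 codons, against 862 in RA, RD and RE, and its start had a summit 30 bp downstream of signal 124.4, which was 51.8 in replicate 1 and 77.2 in replicate 2. The RD and RE start had a summit 272 bp upstream of signal 87.7, which was 33.1 in replicate 1 and 52.1 in replicate 2, and this peak was in neither replicate's own list. The RA start had its nearest summit 582 bp upstream. The 22.2 kb first intron of RB held 6 summits, with signals between 83.5 and 175.5. Without replicate 2, in the own list of replicate 1, the locus had 5 peaks. In replicate 2's own list it had 10, but these were not all the same sites. Of the 10 peaks of the conservative list, 7 had a summit of that list within 200 bp.

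Hr39 (FBgn0261239, chr2L:21237250-21259675, plus strand) had 5 peaks, all in the second intron of its 4 isoforms and none at its 1 annotated start. The nearest summit was 3847 bp downstream of the start. The strongest, at chr2L:21246899, had a signal of 136.2, with 57.0 in replicate 1 and 68.7 in replicate 2. The next, at chr2L:21250727, had 104.9, with 40.7 in replicate 1 and 42.4 in replicate 2. The third, at chr2L:21241097, had 78.4, with 32.4 in replicate 1 and 40.4 in replicate 2. Their ratios of replicate 2 to replicate 1 were 1.21, 1.04 and 1.25, against a median of 1.74 over the 43 peaks. A lower peak of 11.1 lies beside a stronger one of 68.2. Replicate 1's own list and replicate 2's own list held 1 peak each at the locus, and no peak was in both. A candidate 725 bp downstream of the start had a global IDR of 0.00175 and a signal of 106.8, with 36.4 in replicate 1 and 65.6 in replicate 2. It is in neither thresholded list of the series and is not among the 5.

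Hr38 (FBgn0014859, chr2L:20683462-20714588, minus strand) had peaks only upstream of its 1 start, and none in the 22.6 kb first intron of RB. The stronger summit, 115 bp upstream of the start that RB and RD share, had a signal of 132.1, with 31.4 in replicate 1 and 104.5 in replicate 2, a ratio of 3.33. A second summit 319 bp upstream had a signal of 5.63, no replicate 1 match, and the same replicate 2 summit as its neighbour. Both peaks had a global IDR above 0.001. Each replicate's own list held 1 peak at the locus, and these lay apart. That of replicate 2 was the start peak. That of replicate 1 was an intronic site about 6 kb into the gene, where the series' ranked list had a candidate of signal 67.2, with 34.1 in replicate 1 and 29.1 in replicate 2. Its global IDR was 0.0587, over the limit of 0.01, as for 50 of the 52 candidates in the Hr38 window, and 67.2 was the highest signal among those 50.

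Over the 5 genes, 6 of 11 distinct starts had a summit within 500 bp, where 26.0% of the 1800 starts of genes of 20 to 60 kb had one. At least 1 start was so marked in 4 of the 5 genes, against 40.4% of genes of 20 to 60 kb and 21.5% of all protein-coding genes. Without replicate 2, in the own list of replicate 1, this held for 2 of the 5 genes. Start peaks and other peaks had close medians, and the highest signals lay away from starts. The 7 start peaks had a median signal of 132.1 (5.63 to 162.9) and the other 36 a median of 134.2 (11.1 to 474.9).

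By signal the 43 peaks were in the middle of the list, with a median of 133.5 (quartiles 90.6 and 176.1), against 121.5 (88.5 and 190.6) for all peaks. Their median percentile was 56.3, with 25 above the list median and 3 in its top 10%, of which 2 were in Hr3 and 1 in ftz-f1. Without replicate 2, in the own list of replicate 1, the median percentile was 38.4, below that list's middle. A global IDR of 0.001 or below was reached by 27 of 43, against 54.5% of all peaks, and this held for 13 of 16 at ftz-f1, 8 of 10 at Hr3, 5 of 10 at Eip78C, 1 of 5 at Hr39 and 0 of 2 at Hr38. The candidates outside the list included 1 at ftz-f1 with a signal of 227.9 and an IDR of 0.202, where replicate 1 had 22.3 and replicate 2 had 154.9.

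Replicate 2 gave the higher signal at most peaks. Of the 40 peaks with a summit in both replicates' ranked lists within 200 bp, 37 (92.5%) were higher in replicate 2, against 96.1% of all peaks. The median ratio of replicate 2 to replicate 1 was 1.74 (quartiles 1.49 and 2.17, range 0.89 to 3.33), against 1.72 (1.41 and 2.07) for all peaks. A ratio of signals across separate lists is no measure of occupancy. In the own thresholded lists, replicate 1 held 25 of 43, against 53.4% of all peaks. Replicate 2 held 34, against 75.1%, both held 23, against 48.4%, and 7 were in neither, against 20% of all peaks. By gene, both lists held 12 of 16 peaks at ftz-f1, 6 of 10 at Hr3, 5 of 10 at Eip78C and 0 at Hr39 and at Hr38. One replicate summit can serve a pair of neighbouring peaks, as at Hr38, Hr39 and ftz-f1.

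**Figure D3:**
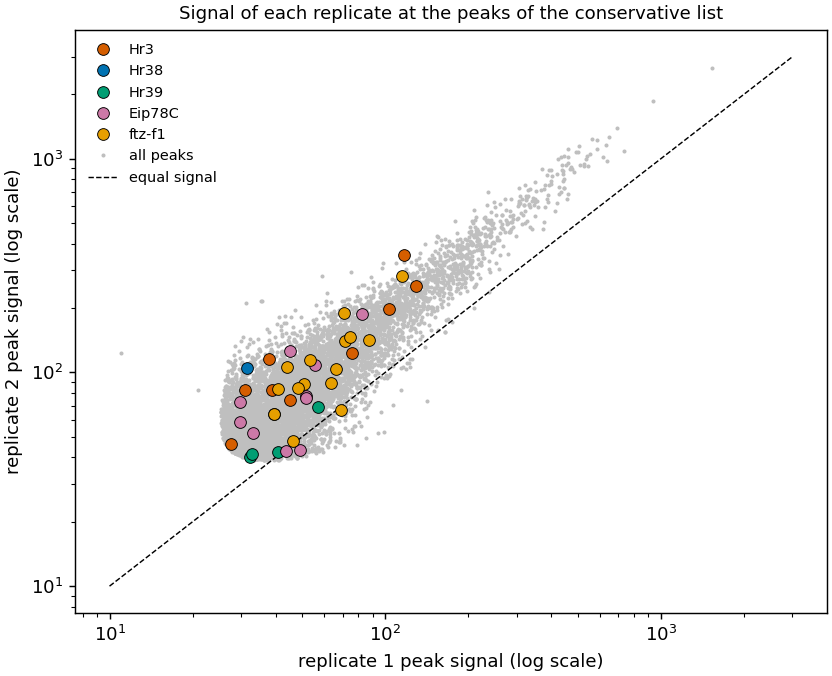
Signal of replicate 1 (x) and of replicate 2 (y) at each peak with a match in both, on log scales, with members coloured by gene, all peaks in grey and a dashed line of equal signal. Most members lie above the line, and their median ratio was 1.74.

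Peaks that overlap a stronger peak were 4 of 43 here, against 7.49% of all peaks. Their signals were 88.4 at Hr3, 40.2 at ftz-f1, 11.1 at Hr39 and 5.63 at Hr38. The 575 such peaks of the whole list had a median signal of 16.3, against 127.6 for the 7101 that overlap no stronger one, and 484 of the 575 were under 60.

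The summits of the 5 genes had a median of 44.6% G + C within 50 bp (22.8 to 69.3), against 36.6% for all peaks. Hr3 had a median of 27.2%, Eip78C 41.1%, ftz-f1 44.6%, Hr39 46.5% and Hr38 59.9%. Peaks at starts had 55.4%, against 38.1% at the others. In the list as a whole, G + C was lower where signal was higher, with a median of 29.7% in the strongest 20% of peaks and 43.6% in the weakest 20%. Member medians were 25.7% for the 8 members in the strongest 20% and 49.5% for the 7 in the weakest 20%.

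**Figure D4:**
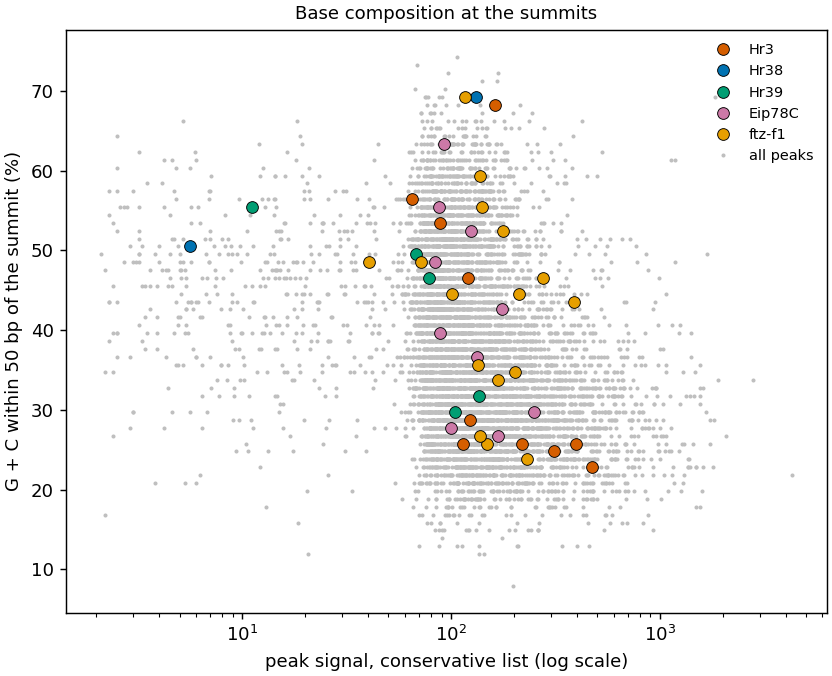
G + C percent within 50 bp of the summit (y) against peak signal on a log scale (x), with members coloured by gene and all peaks in grey. The 3 strongest Hr3 peaks have 22.8% to 25.7% G + C.

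Matches to nuclear receptor sites were few. The core AGGTCA, which Hr3 and ftz-f1 bind in longer forms, was found on either strand within 50 bp of 1 of 43 summits (2.3%, exact 95% interval 0.1% to 12.3%), against 1.75% of all peaks. That match, at the thirteenth ftz-f1 peak, is also the ROR element core TAGGTCA, which 0.404% of all peaks held. The FTZ-F1 core CAAGGTCA, the NBRE core AAAGGTCA and the ecdysone element core GTCANTGAC were at 0 of 43 (exact interval up to 8.2%), against 0.0912%, 0.195% and 0.0391% of all peaks. CACACAC was at 5 of 43 (11.6%, 3.9% to 25.1%), all in ftz-f1, against 4.78%. GAGAGAG was at 3 (7.0%, 1.5% to 19.1%), against 3.27%. TATAAA was at 5 (11.6%), against 17.7%, and GCCAT at 5, against 13.9%. ACAGTG was at 3, against 6.20%, AGATAA at 2 (4.7%), against 6.85%, and CAGCTG at 1, against 3.95%. CAGGTA, GGTCACAC and TATCGATA were at 0, against 1.49%, 0.547% and 0.638% of all peaks. These intervals cover counting error only, and they treat the 43 summits as independent, which overlapping peaks are not. With 100 bp to each side, GAGAGAG was at 8 of 43 (18.6%), against 7.13% of all peaks in the same window. In that window CACACAC was at 8 (18.6%), against 10.1%, ACAGTG at 8 (18.6%), against 16.1%, and TATAAA at 9 (20.9%), against 29.1%.

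Other nuclear receptor genes were marked at a start as well. Of 16 listed, 11 had 1 or more summits and 10 had one within 500 bp of a start, with a median of 1 separate region. The shares were 28.8% and 21.5% over all protein-coding genes, and 66.4% and 40.4% over those of 20 to 60 kb. The 16 genes ran between 1.3 and 113.7 kb, and no match for length was made. Eip75B, which blocks Hr3 by binding it, had 28 separate regions, a strongest start signal of 485.7 and 2.44 regions per 10 kb. Hr4 had 22 regions (3.28 per 10 kb) and a start signal of 112.1. Start signals were 341.4 at Hr96, 300.2 at ERR, 214.9 at eg, 174.6 at Hr78, 170.2 at EcR, 137.5 at svp, 137.4 at Hnf4 and 83.9 at usp. No peak was found at 5 of the 16, and knrl had 2 peaks away from its start.

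Of 17 other genes of the cascade, 4 of them in the list above, 14 had a summit and 12 had one at a start, with a median of 4 regions. The shares were 28.8% and 21.5% over all protein-coding genes, and 66.4% and 40.4% over those of 20 to 60 kb. These cascade genes ran between 1.5 and 113.7 kb, and no match for length was made. E23, which codes for a transporter, had the highest start signal of the list, at 832.4. Among the genes not named above it was followed by 347.5 at tai, a coactivator of EcR, and 325.6 at Eip93F. The others were 196.0 at Eip74EF, with 22 regions (3.57 per 10 kb), 170.9 at vri, 122.7 at Eip63F-1, 118.7 at chinmo and 92.9 at crol. br had 2 peaks and Kr-h1 1, neither at a start. Blimp-1, Eip71CD (annotated as MsrA) and Eip55E (annotated as Cth) had none. Of 15 partners and targets of the 5 members, 6 had a summit, against 28.8% of all protein-coding genes. A summit at a start was found at 4, against 21.5%, and no match for length was made. The 4 were alien (listed as CSN2) with 280.8, Pdp1 with 95.3, ple with 77.8 and mbf1, a coactivator of ftz-f1, with 69.7. Smr, a corepressor, had 11 regions and a strongest signal of 371.9, none at a start. The median over the 15 was 0 regions, and ftz itself had no peak.

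Genes of about the same length (within 20%) and the same number of regions were found for 4 members, with the strongest signal as the measure of likeness. For Hr3, with 474.9, they were RhoGAP18B (312.4) and msn (289.3). For Eip78C, with 248.5, they were siz (177.5) and mew (386.1). For Hr39, with 136.2, they were RhoGAP71E (137.8) and ena (133.5), and for Hr38, with 132.1, Tusp (132.3) and ssp3 (129.6). No gene met these terms for ftz-f1.

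The limits of the loci were set by the window. Outside it, the nearest summits upstream were 1604 bp from Hr38, with a signal of 125.4, 1702 bp from Eip78C, with 99.6, and 2776 bp from Hr39, with 82.3. They were 13071 bp from ftz-f1, with 234.6, and 15114 bp from Hr3, with 90.4. Beyond the 3' end, the nearest were 1315 bp from Hr39, with 113.9, 2367 bp from ftz-f1, with 117.7, and 3724 bp from Hr3, with 19.2. Those of Hr38 and Eip78C were at 7414 bp, with 84.9, and 13664 bp, with 98.2.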

How the data were processed

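ChIP-seq peaks of CG32121-eGFP in whole pupae were analysed in 2 replicates of 1 group, as dm6 peak lists deposited by the authors. The signal of each peak and the −log10 of its global IDR are the values deposited by the authors. Which aligner and caller were run, and in what version, was not given in the sources used here. A further, undescribed input went into the thresholded lists, according to notes that accompany the samples. Every peak of the conservative list had a global IDR of 0.01 or below. All peaks fell within the arms of the Release 6 reference.

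Computed here with Python 3.11.15, pandas 2.3.3, numpy 2.4.6 and scipy 1.17.1, and drawn with matplotlib 3.10.9, were the gene of each summit from Ensembl release 115, separate regions (peaks that overlap by 1 bp or more, merged), places by isoform, each replicate's signal (its closest ranked summit, up to 200 bp away), base composition and motifs within 50 bp, with exact binomial intervals at 95%. In 4 columns of the series' ranked lists the replicate is not named, and these were not used. Counting steps were tested on simulated data. The 5 members, the lists and the motifs were chosen with earlier results of these data known. Of the listed symbols, 4 were matched through recorded synonyms. In full are given the 3 strongest peaks of each gene and every peak within 500 bp of a start. No test was run.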

Additional observations from a re-analysis of the deposited data

How the results depend on the processing

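Of 64 recomputed values of counts, ratios, ranks and densities, 49 stayed within 1.5 times of the value reported (ranks: within 10.9 percentile points, the SD between replicates) and 15 did not. The 2 peaks of Hr38 became 1 when overlapping peaks were merged (chosen after seeing the data), 0 at a global IDR of 0.001 and 0 without the upstream window, and its density became 0.62 per 10 kb when peaks were counted one by one. Hr39 had 3 peaks in the other thresholded list and 1 at an IDR of 0.001. Eip78C had 5 and the 5 genes together 27 at that limit. When each replicate was left out in turn, the peaks ranged between 7 and 12 at Hr3, 5 and 10 at Eip78C, and 29 and 39 over all 5. They were 1 and 1 at Hr38, 1 and 1 at Hr39, and 15 and 15 at ftz-f1, but equal counts were not all the same sites. Of the peaks reported, both replicates' own lists held 0 at Hr38, 0 at Hr39 and 12 of 16 at ftz-f1. Genes with a peak at a start ranged between 2 and 4, and the median percentile between 38.4 and 53.8, the lower values being those without replicate 2. The causes were not tested. The 15 motif shares stayed within their wide exact intervals with 100 bp to each side, but shares can only rise in a wider window. GAGAGAG came to 18.6% of member summits (all peaks 7.13%), CACACAC 18.6% (10.1%), ACAGTG 18.6% (16.1%), GCCAT 23.3% (26.6%), TATAAA 20.9% (29.1%) and AGATAA 11.6% (12.1%). AGGTCA came to 4.7% (3.61%), TAGGTCA 4.7% (0.938%) and CAGCTG 4.7% (8.75%), and the rest had no match at a member summit. No paired analysis was possible because the series has 1 group. Depth is unknown, so a site above the IDR limit cannot be called unbound.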
